A study of Hyphopichia burtonii with 8 samples.

Results

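Transcript levels of the yeast Hyphopichia burtonii after 1 h in YPD with 1 M NaCl were compared with those after 1 h in YPD alone. The comparison took every gene with at least 1 FPKM (fragments mapped to a gene, corrected for its length and for the size of the library) in 2 or more of the 4 libraries of these media. This left 5720 of the 6166 genes in the files, of which 2332 carried a gene symbol and 3388 had a locus tag only. The minimum was met through a single medium by 57 of them, 40 through the NaCl pair and 17 through the YPD pair.

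Every library came from the wild-type strain KJJ43, an isolate from Nuruk, which is a Korean grain starter for fermentation. Precultured cells entered fresh medium at an optical density of 0.6 and grew for 1 h in one of 4 media. These were YPD (yeast extract, peptone and glucose, the control of the study), YPD with 1 M NaCl, YPD with 1 M KCl, and YPD with 1 M sorbitol, a sugar alcohol without charge. Each medium had 2 libraries, written here as NaCl 1 and NaCl 2, and the p-values below measure only the spread between such libraries, since the sources used here do not say whether they came from separate cultures.

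Concentrated salt draws water out of a yeast cell, and sodium ions that enter are toxic because they displace potassium in the cytosol. In other yeasts the kinase Hog1 answers the loss of water by raising glycerol synthesis, while ENA sodium pumps and sodium/proton antiporters expel sodium. A separate programme, general amino acid control, lets the transcription factor Gcn4 accumulate when uncharged tRNA is sensed, and Gcn4 then raises genes of amino acid synthesis. Gene symbols come from the annotation of another strain of the species, and the roles given here are background from relatives, chiefly Saccharomyces cerevisiae and Candida albicans.

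The 2 libraries of a medium correlated at 0.984 to 0.987 across genes, which are not independent replicates. The number of genes at 1 FPKM or more ranged from 5624 to 5699 per library. The files hold no fragment counts, but the spacing of low values placed the relative depth of the libraries within a factor of 2.16, with YPD 2 the deepest and KCl 2 the shallowest. The assignment of fragments shared by near-identical genes and the use of strand are not given in the labels or notes, so values of close paralogs such as histone, ubiquitin, elongation factor and ribosomal protein genes are uncertain.

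In NaCl 925 genes rose (16.2% of those tested) and 667 fell (11.7%), so that 27.8% changed. A gene is said to rise or fall, or is called, when its adjusted p in limma is under 0.05, with log2(FPKM + 1) of all 8 libraries in 1 model and Benjamini-Hochberg adjustment over the 5720 genes. At an unadjusted p under 0.05 the number was 2303. The number of calls depended on single libraries, with 725 called without NaCl 1, 769 without YPD 1, 990 without NaCl 2 and 1152 without YPD 2. Of the called genes 606 were called in every fit that left out 1 library, 366 higher (6.4% of all genes) and 240 lower (4.2%). After quantile normalization, which moved the median change of all genes from 0.001 to -0.093 on the log2 scale, 802 genes were higher and 1010 lower. Both NaCl libraries lay above both YPD libraries for 2025 genes (35.4%) and below them for 1945 (34.0%).

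Large changes were mostly increases. Of the called genes 492 rose (8.6%) and 224 fell (3.92%) by at least 1 log2 unit, and 76 rose (1.33%) against 7 that fell (0.122%) by at least 3. The balance also shifted with abundance. Among the 1430 genes with the lowest mean level over the 8 libraries 220 rose and 85 fell, and among the 1430 with the highest 242 rose and 289 fell. On the scale of log2(FPKM + 1) the fall of a gene with a low level in YPD is bounded, while its rise is not. How far this bound set the balance of rises and falls was not tested. For 38 of 44 gene lists every gene in the files met the minimum of FPKM, and in the other 6 lists 1 to 3 genes did not. Of the 3388 genes without a symbol 493 rose and 362 fell, and of the 2332 with a symbol 432 rose and 305 fell. Over all genes tested 16.2% rose and 11.7% fell, the shares against which the counts in gene lists below are to be read. In 5 genes both YPD libraries were under 1 FPKM and both NaCl libraries at 10 FPKM or more, while no gene had the reverse pattern. By this definition the 5 genes met the minimum of FPKM through the NaCl pair only. DUR3, a urea transporter gene, was the only one of the 5 with a symbol, and 1 of the others was listed at 0 in both YPD libraries.

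**Figure D1:**
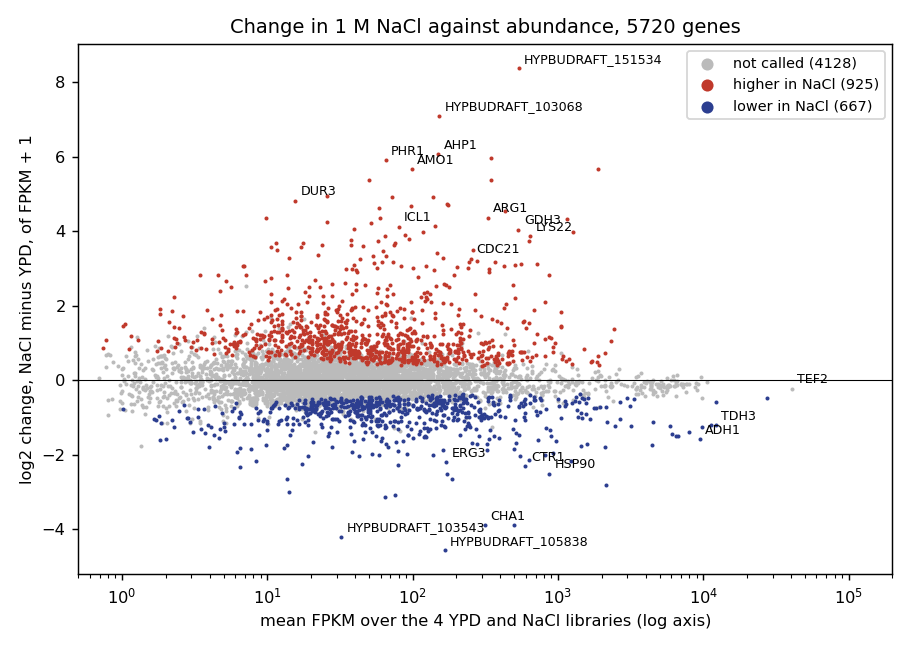
Log2 change of FPKM + 1 in NaCl against YPD (vertical axis) by the mean FPKM of the 4 libraries (horizontal axis, log scale), 1 point per gene for 5720 genes, coloured by limma's call. The 925 risen genes reach 8.38 log2 units (HYPBUDRAFT_151534), the 667 fallen genes reach -4.56 (HYPBUDRAFT_105838), and TDH3 and ADH1 are among the abundant genes that fell.

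The most changed gene had no symbol. HYPBUDRAFT_151534 was at 2.72 and 1.78 FPKM in YPD 1 and YPD 2 and at 1109 and 1029 in NaCl 1 and NaCl 2, a log2 change of 8.38 ± 0.28 (limma adjusted p = 9.6e-07). It stayed low in the other solutes, at 3.06 and 1.37 FPKM in KCl and 2.15 and 1.67 in sorbitol. HYPBUDRAFT_103068 had the same shape, with 1.21 and 1.21 FPKM in YPD, 284 and 322 in NaCl, 1.06 and 1.03 in KCl and 0.330 and 1.05 in sorbitol. For both loci the NaCl libraries stood far above the other 6. The deepest falls behaved otherwise: HYPBUDRAFT_105838 went from 299 and 338 FPKM in YPD to 8.28 and 18.6 in NaCl, and was at 23.1 and 21.9 in KCl but 515 and 453 in sorbitol. Its NaCl level did not pass the test against KCl (log2 difference -0.80 ± 0.30, adjusted p = 0.14) and was lower than in sorbitol (log2 difference -5.16 ± 0.30). HYPBUDRAFT_103543 fell from 94.9 and 30.4 to 2.06 and 1.91 FPKM, with YPD libraries that themselves differed widely. Absence of overlap between YPD and NaCl was a condition for naming this gene, as for the genes of largest change below.

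Among genes with a symbol, AHP1, a thioredoxin peroxidase gene, rose most, from 3.055 and 3.87 FPKM in YPD to 289 and 302 in NaCl (log2 change 6.06 ± 0.16, limma adjusted p = 6.8e-07). KCl held 72.0 and 81.0 FPKM and sorbitol 9.45 and 8.70, so NaCl was the highest medium, KCl came next, and libraries of different media did not overlap. PHR1, a cell wall transglycosidase gene, stood at 0.987 and 1.31 FPKM in YPD and 152 and 106 in NaCl. It was at 3.37 and 3.18 FPKM in KCl and 1.09 and 1.46 in sorbitol, well below both NaCl libraries. SCW4, of a glucanase family of the wall, had 3.89 and 3.17 FPKM in YPD, 90.6 and 60.2 in NaCl, 6.55 and 6.996 in KCl and 3.71 and 2.44 in sorbitol. SAP7, a secreted aspartyl protease gene, and YWP1, a wall protein gene of the yeast form in C. albicans, rose by 4.73 ± 0.14 and 3.72 ± 0.21 log2 units. IDP1, an NADP-dependent isocitrate dehydrogenase gene, rose from 83.0 and 91.8 to 1113 and 1219.6 FPKM, and its sorbitol libraries (88.5 and 87.2) sat at the YPD level. RCT1 rose from 8.18 and 5.82 to 80.5 and 164 FPKM and did not pass the test against KCl (log2 difference 1.57 ± 0.50, adjusted p = 0.087).

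CHA1, a serine and threonine dehydratase gene, fell furthest among genes with a symbol. Its values were 733 and 441 FPKM in YPD, 39.4 and 35.4 in NaCl, 144 and 154 in KCl and 289.9 and 362 in sorbitol (log2 change in NaCl -3.89 ± 0.23, limma adjusted p = 1.4e-05). The 4 media did not overlap, in the order YPD, sorbitol, KCl, NaCl from high to low. YHB1, a nitric oxide dioxygenase gene, fell from 2574 and 1919 to 643 and 651 FPKM, and CST5, a scaffold gene of the mating pathway in C. albicans, from 13.0 and 12.1 to 3.04 and 2.47. STF2 and CAP4 fell with log2 changes of -1.96 ± 0.20 and -2.26 ± 0.24. The remaining genes among the 15 largest falls called in every fit are given with their gene groups below.

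**Figure D2:**
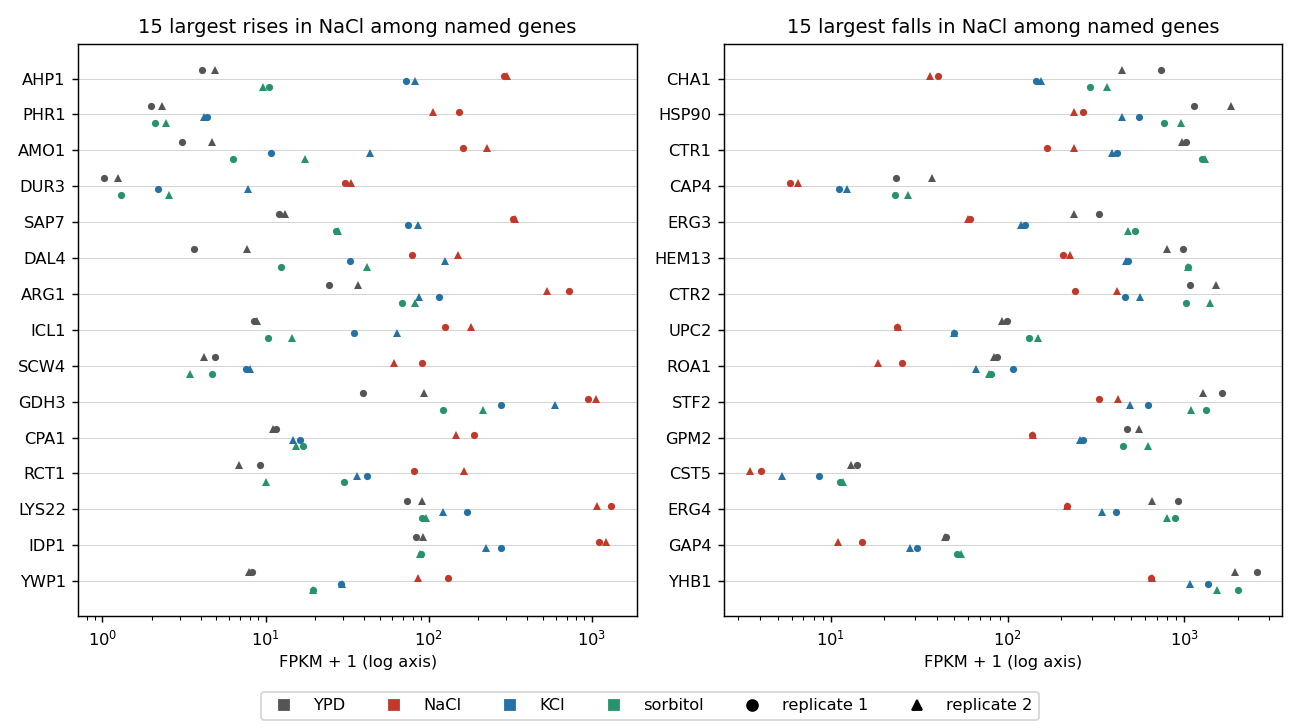
FPKM + 1 in each of the 8 libraries (log axis) for the 15 largest rises and 15 largest falls among genes with a symbol that were called in every fit with 1 library left out; colour marks the medium and shape the replicate. The 4 AHP1 points of YPD and sorbitol lie below 10 FPKM and those of NaCl at 289 and 302, while for DAL4 the second KCl library (125 FPKM) lies between the NaCl libraries.

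Most genes of amino acid synthesis rose in NaCl, and those for arginine, lysine and branched-chain amino acids were mostly higher than in KCl and sorbitol as well, whereas MET3 and MET14 of sulfate assimilation overlapped between the salts. For 88 genes in 6 lists (arginine, lysine, branched-chain, aromatic with histidine, sulfur with methionine, and the glutamate family), 54 rose and 11 fell, and the median log2 change was 1.02 against 0.001 over all 5720 genes. Together they held 1.23% and 1.27% of the summed FPKM in the YPD libraries and 2.94% and 2.63% in the NaCl libraries. The KCl libraries, at 1.39% and 1.44%, and the sorbitol libraries, at 1.25% and 1.36%, stayed near YPD. GCN4, which encodes the activator of general amino acid control, was at 345 and 310.3 FPKM in YPD, 878 and 856 in NaCl, 309 and 325 in KCl and 355 and 363 in sorbitol. Its NaCl libraries stood above the other 6, which lay close together, and the log2 change was 1.40 ± 0.12 (limma adjusted p = 7.7e-05). Transcripts of GCN2, the kinase gene of the same programme, were not called (log2 change -0.03, adjusted p = 0.90).

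NaCl was also tested against the other solutes in the same model. These comparisons share the NaCl libraries with the one against YPD, so their values are given side by side. Against KCl 623 genes were called (10.9%), 393 higher in NaCl (6.87%) and 230 lower (4.02%). Without NaCl 1 this count was 238, without KCl 1 261 and without NaCl 2 316. Against sorbitol 1761 were called (30.8%), 976 higher (17.1%) and 785 lower (13.7%), with 980 without NaCl 1, 1071 without NaCl 2 and 1157 without sorbitol 1.

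Of 10 genes of arginine synthesis and the urea cycle 9 rose and none fell, in the full fit and in every fit with a library left out, with a median log2 change of 2.53. ARG1 (argininosuccinate synthase) was at 23.6 and 36.0 FPKM in YPD, 721 and 529.5 in NaCl, 115 and 86.0 in KCl and 67.2 and 81.5 in sorbitol. CPA1, of carbamoyl phosphate synthesis, rose by 3.88 ± 0.18 log2 units. ARG4 (argininosuccinate lyase) stood at 45.7 and 47.1 FPKM in YPD and 295 and 267 in NaCl, and its mean was 46.0 ± 2.75 FPKM (SD, n = 2) in KCl and 46.1 ± 0.278 in sorbitol. ARG4 thus rose in NaCl while its levels in KCl, sorbitol and YPD lay within a few FPKM of each other. ARG2, which acts at the first step of ornithine synthesis, was the member not called (-0.31, adjusted p = 0.13). All 9 risen genes were also higher in NaCl than in KCl (median difference of the list 2.51) and than in sorbitol (2.38).

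In lysine synthesis 6 of 9 genes rose, 2 fell, and the median log2 change was 2.43. LYS22 (homocitrate synthase) went from 72.2 and 90.5 to 1318 and 1078 FPKM, with 170.0 and 121 in KCl and 89.4 and 95.9 in sorbitol. LYS1 and LYS9, the last enzymes of the pathway, rose by 3.29 ± 0.21 and 2.83 ± 0.18 log2 units. LYS21, named after another homocitrate synthase, moved the other way, from 228 and 253 to 167 and 163 FPKM (log2 change -0.54; the call was lost without NaCl 1, NaCl 2 or YPD 2, adjusted p up to 0.071). LYS144, named after a regulator of the pathway, fell from 36.8 and 29.1 to 13.4 and 14.6 FPKM. Its role in this species rests on the symbol alone.

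Of 10 genes for branched-chain amino acids 9 rose and 1 fell, with a median of 1.96. ILV5 was at 147 and 149 FPKM in YPD, 1342 and 1233 in NaCl, 315 and 304 in KCl and 235 and 145 in sorbitol, and LEU42, one of the isopropylmalate synthase genes, at 101.2 and 109 in YPD, 1016 and 792 in NaCl, 105 and 119.9 in KCl and 78.2 and 95.2 in sorbitol. NaCl was the highest medium for both. ILV2 (acetolactate synthase) and LEU2 rose by 2.90 ± 0.14 and 2.83 ± 0.18. The member that fell was LEU3, named after a transcription factor of this pathway (-0.77; lost without NaCl 1, NaCl 2 or YPD 2, adjusted p up to 0.12), so that without one of these libraries no member was lower. Against KCl 9 of the 10 were higher in NaCl.

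For aromatic amino acids and histidine 13 of 19 genes rose and 1 fell (median 0.75), with 8 rises without NaCl 2 or without YPD 1. ARO8, an aromatic aminotransferase gene, rose by 2.21 ± 0.13 log2 units, HIS1 by 2.11 ± 0.15 and HIS5 by 1.88 ± 0.16. HIS1 stood at 306 and 299 FPKM in YPD, 1513 and 1129.8 in NaCl, 329 and 307 in KCl and 343 and 324 in sorbitol, so both NaCl libraries were far above the other 6. The fall was ARO2 (-0.54; lost without NaCl 1 or YPD 1, adjusted p up to 0.078).

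The sulfur list was divided. Of 26 genes of sulfate assimilation and methionine 11 rose and 4 fell, with a median of 0.53. MET3 (ATP sulfurylase), the entry to sulfate assimilation, was at 8.885 and 11.7 FPKM in YPD, 92.7 and 102 in NaCl, 90.1 and 100.3 in KCl and 35.2 and 44.8 in sorbitol. MET14 (adenylylsulfate kinase), the next step, was at 34.1 and 43.2 in YPD, 181 and 221 in NaCl and 254 and 195 in KCl. For both genes the libraries of the 2 salts overlapped, and the log2 differences between NaCl and KCl, 0.03 ± 0.19 and -0.15 ± 0.19, were not called (adjusted p = 0.94 and 0.67). HOM3 (aspartate kinase) serves methionine and threonine synthesis, and THR4 (threonine synthase) serves threonine synthesis. They rose by 2.25 ± 0.34 and 1.58 ± 0.17 and were higher than in KCl by 1.83 and 1.48. The transsulfuration genes CYS3 and CYS4 fell, with log2 changes of -0.84 ± 0.15 and -1.02 ± 0.19, and SAM2 (S-adenosylmethionine synthetase) fell from 729 and 811 to 399 and 378 FPKM. Of the 26 genes 6 were higher and 2 lower in NaCl than in KCl, with a median difference of 0.06.

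In the list of glutamate, glutamine, proline and asparagine 6 of 14 genes rose and 3 fell (median 0.51; 1 fall without NaCl 2). GDH3, an NADP-dependent glutamate dehydrogenase gene that fixes ammonium, rose from 38.6 and 92.3 to 942 and 1062 FPKM. KCl held 278 and 592 and sorbitol 121 and 215, and the difference between the salts was not called (log2 1.30 ± 0.47, adjusted p = 0.12). GDH2, the NAD-dependent enzyme gene of the opposite reaction, fell from 430.3 and 359.9 to 194 and 216 FPKM. PRO2, of proline synthesis, rose from 51.6 and 52.8 to 271 and 335 FPKM and was at 36.2 and 58.2 in KCl and 30.3 and 43.3 in sorbitol. ASN1 (asparagine synthetase) rose by 1.83 ± 0.18 log2 units.

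Genes for the use of poor nitrogen sources rose as a larger group: 17 of 29 rose, 2 fell, and the median log2 change was 1.37. Without NaCl 2 or YPD 1 the rises were 11, and the falls, of PTR22 and NIT3 (adjusted p up to 0.24 and 0.18 without 1 library), were 0 without KCl 1, KCl 2, NaCl 1, NaCl 2 or YPD 2, and 1 without YPD 1, sorbitol 1 or sorbitol 2. DUR3, the urea transporter gene, was at 0.0190 and 0.248 FPKM in YPD, 29.5 and 32.2 in NaCl, 1.201 and 6.825 in KCl and 0.301 and 1.57 in sorbitol. It met the minimum of FPKM through the NaCl pair only. AMO1, an amine oxidase gene, was at 2.09 and 3.72 in YPD, 162 and 227 in NaCl, 9.725 and 42.8 in KCl and 5.34 and 16.3 in sorbitol. DAL4, an allantoin permease gene, had 2.63 and 6.69 FPKM in YPD and 77.8 and 149 in NaCl, and its KCl libraries (31.9 and 125) overlapped those of NaCl. The second library exceeded the first in all 4 media for DUR3, AMO1 and DAL4. It did so for further genes as well, among them GDH3 above and ICL1 and MLS1 below. The model behind the calls held no term for the replicate number, and the cause of this shared difference was not tested. DAL1 (allantoinase) rose by 2.59 ± 0.19, the ammonium permease gene MEP1 by 2.17 ± 0.14, and UGA1 and UGA4, which degrade and import gamma-aminobutyrate, by 2.31 ± 0.19 and 2.50 ± 0.22 log2 units. Of the regulators, GLN3 rose by 0.75 (lost without any single YPD or NaCl library, adjusted p up to 0.15), and GAT1 was not called (0.23, adjusted p = 0.76). Against KCl 9 of the 29 were higher in NaCl, against sorbitol 14 were higher and 3 lower.

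Among 13 amino acid permease genes 3 rose and 1 fell (1 rise without NaCl 2 or YPD 1). Rises and falls were 23.1% and 7.69% of this list, against 16.2% and 11.7% over all genes tested. GNP1 went from 436 and 415 to 1052 and 946 FPKM, while GAP4 fell from 44.1 and 43.3 to 14.0 and 10.03. Vacuolar proteolysis genes rose in part: of 13 genes of autophagy and the vacuole 4 rose, in every fit. These were AUT7, the ubiquitin-like protein gene of autophagosomes, which rose from 35.5 and 37.1 to 162 and 154 FPKM, and the vacuolar peptidase genes LAP41, CPY1 and APE3, which rose by 0.91, 0.75 and 0.68 log2 units. AUT7 was at 42.5 and 50.7 FPKM in KCl and 27.1 and 32.6 in sorbitol. The list's 2 falls, of VAM3 and VAC8, were 0 without any single YPD or NaCl library (adjusted p up to 0.17 and 0.15) and 1 without any KCl or sorbitol library, against 4 after quantile normalization. The median of this list was -0.29.

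Of 18 tRNA synthetase genes 6 rose and none fell (2 rises without NaCl 1 or YPD 1, 3 without YPD 2 or with no intensity trend), with a median of 0.37. DED81 (asparaginyl-tRNA synthetase) rose from 427 and 489.7 to 953 and 857 FPKM and THS1 (threonyl-tRNA synthetase) from 202 and 219.9 to 391 and 322. Among 29 translation factor genes, a list that holds GCN4, 5 rose and 3 fell, with a median of 0.01. These are 17.2% and 10.3%, near the 16.2% and 11.7% over all genes tested. The rises numbered 3 without NaCl 1, sorbitol 1 or sorbitol 2 or with no intensity trend, and 1 without NaCl 2 or YPD 1, where GCN4 alone remained. TIF5, encoding initiation factor eIF5, fell from 172 and 197 to 59.9 and 66.3 FPKM, with 214 and 215 in KCl and 211 and 245 in sorbitol. GCN3, a subunit gene of the exchange factor eIF2B, fell from 106 and 113 to 60.8 and 69.4 FPKM. NaCl was below the other 6 libraries for both genes.

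**Figure D3:**
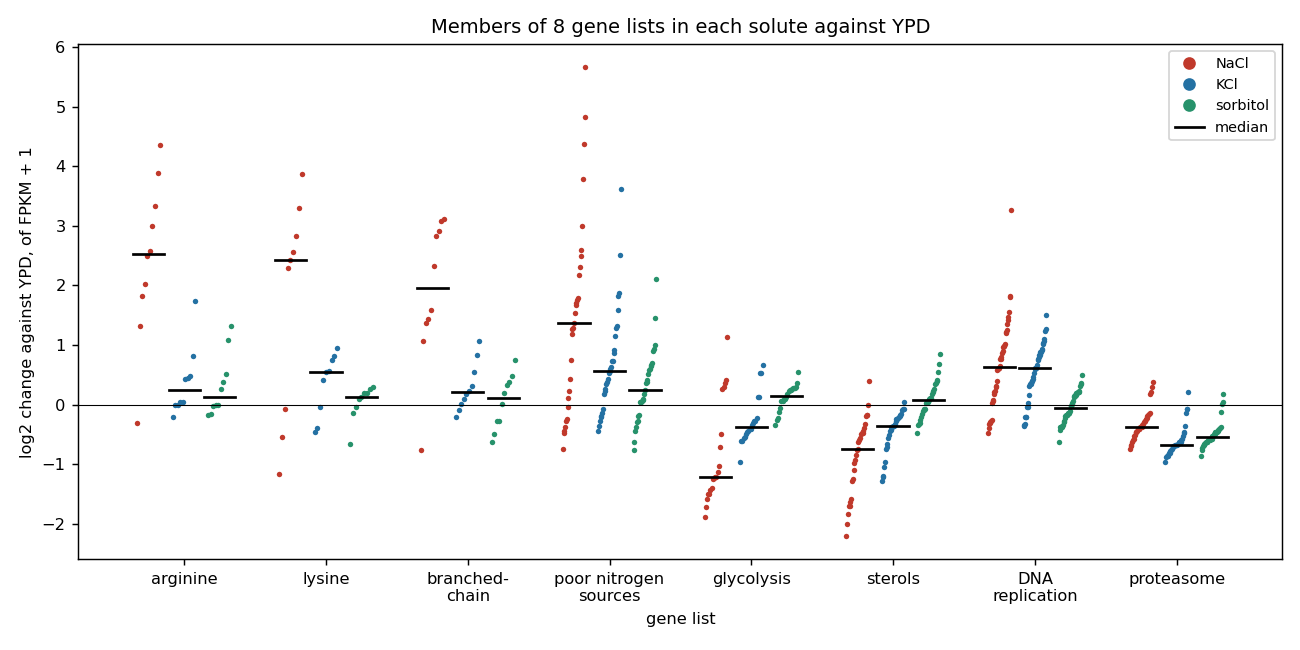
Log2 change of FPKM + 1 against YPD for every member of 8 gene lists (1 point per gene) in NaCl, KCl and sorbitol, with the median as a black line; the 3 changes share the YPD libraries. The medians of arginine, lysine and branched-chain genes are 2.53, 2.43 and 1.96 in NaCl and between 0.11 and 0.55 in the other solutes, while those of DNA replication are 0.63 in NaCl, 0.61 in KCl and -0.06 in sorbitol.

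Genes of glycolysis and fermentation fell together. Of 20 genes 14 fell and 1 rose, with a median log2 change of -1.21, and leaving out any library kept these counts within 1.5 times. The list held 9.90% and 7.89% of the summed FPKM in YPD, 4.38% and 4.22% in NaCl, 6.85% and 6.79% in KCl, and 8.49% and 8.33% in sorbitol. NaCl was thus the lowest medium, KCl lay between, and the sorbitol libraries lay within the YPD range. TDH3 (glyceraldehyde-3-phosphate dehydrogenase), one of the 5 most abundant transcripts in YPD, was at 17743 and 16292 FPKM in YPD, 7686 and 7014 in NaCl, 15000.5 and 13034 in KCl and 18502 and 17888 in sorbitol. FBA1 (aldolase) fell from 17106 and 14429 to 6832 and 6757 FPKM and ADH1 (alcohol dehydrogenase) from 16807 and 11679 to 4656 and 4695. PFK2 (phosphofructokinase) and GPM2 (phosphoglycerate mutase) fell with log2 changes of -1.72 ± 0.16 and -1.89 ± 0.17. PDC11 (pyruvate decarboxylase) fell by 1.49 ± 0.19. The gene that rose was ADH4, from 14.4 and 12.4 to 30.6 and 30.6 FPKM. Against KCl 13 of the 20 were lower in NaCl, with a median difference of -0.70, and against sorbitol 14 were lower and 2 higher.

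Transcripts of the pyruvate dehydrogenase complex, which feeds the TCA cycle, were lower too. In the TCA list 7 of 18 genes fell and 2 rose, with a median of -0.38, and the falls numbered 4 without NaCl 1 or YPD 1 and 3 without NaCl 2. The pyruvate dehydrogenase genes PDA1, PDB1 and LAT1 were the 3 falls seen in every fit. PDA1 was at 2072 and 2009.7 FPKM in YPD, 1089 and 1081 in NaCl, 1872 and 1757 in KCl and 2340.3 and 2226 in sorbitol, so NaCl was the lowest medium. PDB1 and LAT1 fell with log2 changes of -0.69 ± 0.13 and -1.03 ± 0.13. PDX1 and LPD1, further genes of the complex, were called lower (-0.57 and -0.46), PDX1 not without NaCl 1, NaCl 2 or YPD 1 (adjusted p up to 0.093) and LPD1 not without any single YPD or NaCl library (up to 0.14). Among the rises, that of MDH1 (0.42) was lost without any single YPD, NaCl or sorbitol library (adjusted p up to 0.17).

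Genes of the glyoxylate cycle rose, whereas FBP1 and PCK1 of gluconeogenesis were not called. In the list of the glyoxylate cycle, acetate and gluconeogenesis 6 of 15 genes rose and 1 fell, with a median of 0.29. ICL1 (isocitrate lyase) was at 7.48 and 7.83 FPKM in YPD, 125 and 179.7 in NaCl, 33.8 and 62.9 in KCl and 9.39 and 13.5 in sorbitol. MLS1 (malate synthase) rose from 6.53 and 8.285 to 58.4 and 83.9 FPKM and SFC1, a carrier gene for succinate and fumarate, from 1.52 and 2.14 to 23.2 and 29.4. All 3 were also higher in NaCl than in KCl, by 1.68, 1.30 and 1.70 log2 units, and their sorbitol libraries lay close to YPD. FBP1 (fructose-1,6-bisphosphatase) was at 717 and 407 FPKM in YPD and 556 and 538 in NaCl, which overlapped, and PCK1 (phosphoenolpyruvate carboxykinase) had a log2 change of -1.06 (adjusted p = 0.11). The fall was FRP3 (-1.79), lost without YPD 1 (adjusted p = 0.054).

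Of 34 genes of fatty acid oxidation and the peroxisome 13 rose and none fell, with a median of 0.23. Without NaCl 1 or YPD 1 the rises were 6, without NaCl 2 7 and without YPD 2 8, and 1 member was lower without sorbitol 1. IDP1 (described above), FAA2 (acyl-CoA synthetase), CRC1 (acylcarnitine carrier), FOX2 and SPS20, the last 4 with log2 changes of 1.10, 1.08, 0.82 and 0.96, rose in every fit. IDP1 was placed in this list by its symbol, which does not show where in the cell its enzyme acts. Whether that is the peroxisome was not tested. In oxidative phosphorylation 9 of 42 genes fell and none rose (median -0.17), with 2 falls without NaCl 1 or YPD 2, 4 without NaCl 2 and 5 without YPD 1, and 2 rises after quantile normalization. COX13, a cytochrome oxidase subunit gene, was the fall that held in every fit, from 2636 and 2678 to 1536 and 1691 FPKM. In the pentose phosphate pathway 4 of 9 rose (1 without NaCl 1 or YPD 1 and 2 without NaCl 2, YPD 2 or either sorbitol library, or with no intensity trend), SOL3 (6-phosphogluconolactonase) from 186 and 228 to 407 and 393 FPKM. Hexose transport and galactose genes, 17 in all, had a median of 0.44 with 1 rise and 1 fall (2 rises without NaCl 1 or either KCl library, no fall without NaCl 1 or YPD 1). HXT2.1, a sugar transporter gene, rose from 8.11 and 7.125 to 17.6 and 21.6 FPKM.

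**Figure D4:**
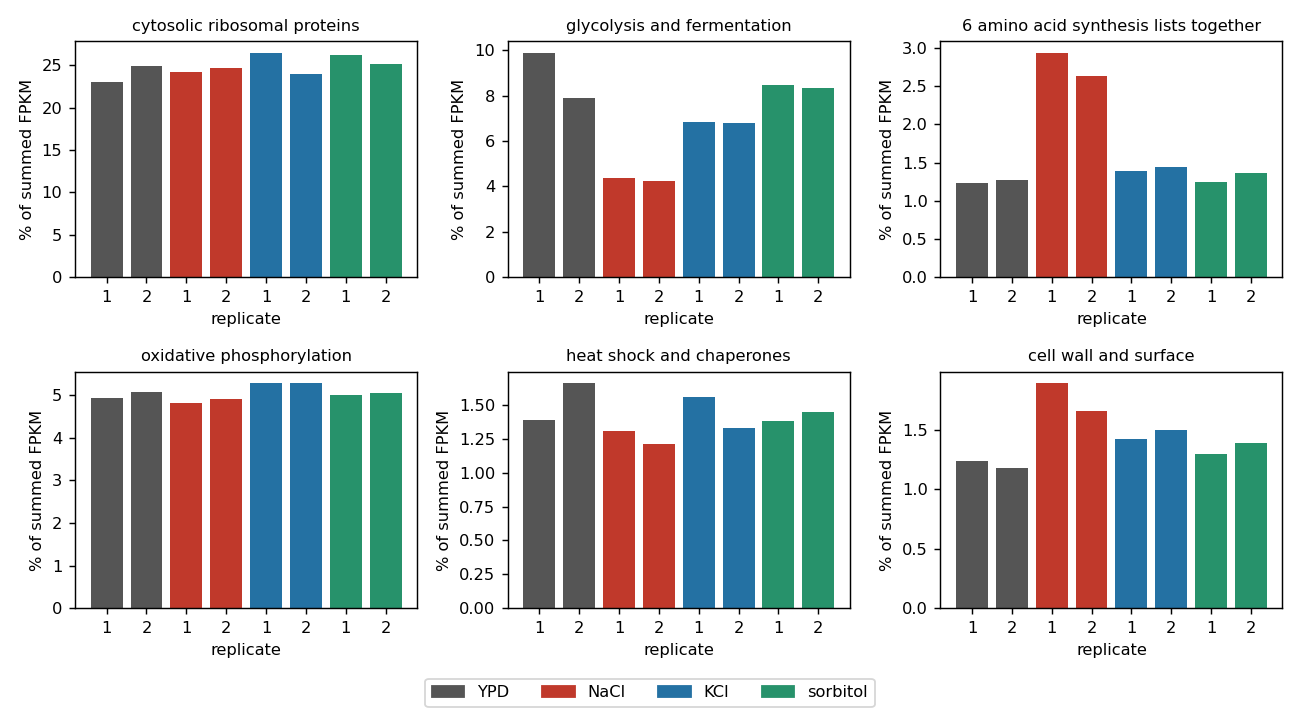
Percent of the summed FPKM of each library (vertical axes, from 0) held by 6 gene lists, 1 bar per library. Glycolysis falls from 9.90% and 7.89% in YPD to 4.38% and 4.22% in NaCl, the amino acid lists rise from 1.23% and 1.27% to 2.94% and 2.63%, and ribosomal proteins stay between 23.0% and 26.5%.

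Genes that degrade serine and glycine were among those that fell. Of 10 genes in the serine and glycine list 6 fell and 1 rose, with a median of -0.47, and 3 fell without NaCl 1 or YPD 2. The rise, SER33 (0.50, adjusted p up to 0.17 without 1 library), was lost without NaCl 1, YPD 1 or YPD 2. Beside CHA1, the glycine cleavage genes GCV1 and GCV2 fell in every fit. GCV1 was at 391 and 405 FPKM in YPD, 182 and 196 in NaCl, 493 and 524 in KCl and 321 and 345 in sorbitol, so that NaCl was the lowest medium and KCl the highest. Purine and pyrimidine synthesis had 9 falls and 3 rises among 28 genes, with a median of -0.38. The falls were 3 without NaCl 1 or YPD 1, 5 without NaCl 2 or YPD 2, and 14 after quantile normalization. ADE13 (adenylosuccinate lyase) fell from 797 and 806 to 384 and 373 FPKM and APT1 (adenine phosphoribosyltransferase) from 423 and 454 to 208 and 225, while URA2, which starts pyrimidine synthesis, rose from 60.1 and 74.2 to 163 and 128 and the permease gene FCY23 from 36.1 and 33.9 to 115 and 97.9. URA1, of pyrimidine synthesis, fell by 0.79 ± 0.15 log2 units. Against KCl 13 of the 28 genes were lower in NaCl and 2 higher.

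Genes of sterol synthesis, which supplies ergosterol to the membrane, fell together. Of 29 genes 22 fell and none rose, with a median of -0.74. No left-out library moved the count by over 1.5 times, and 12 of the 22 were called in every fit. ERG3, a sterol desaturase gene, was at 326 and 236 FPKM in YPD, 60.1 and 59.0 in NaCl, 125 and 117 in KCl and 526 and 477 in sorbitol. The media did not overlap, and ran in the order sorbitol, YPD, KCl, NaCl from high to low. ERG4 fell from 913 and 653 to 216 and 214 FPKM. UPC2, which encodes the activator of this pathway, was at 98.4 and 91.5 FPKM in YPD, 22.7 and 22.9 in NaCl, 48.4 and 48.5 in KCl and 131 and 148 in sorbitol, the same order of media. HMG1, the reductase gene of the early pathway, was not called (-0.18, adjusted p = 0.38). Against KCl 8 of the 29 were lower in NaCl (median difference -0.33), and against sorbitol 22 (median difference -0.77).

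Among other lipid genes, FAD3 and FAD2, named after fatty acid desaturases, rose by 2.11 ± 0.37 and 0.77 ± 0.14 log2 units. Both had KCl values close to NaCl, with FAD3 at 231 and 166 FPKM in NaCl and 211 and 144 in KCl. The fatty acid synthesis list counted 2 rises and 2 falls in 11 genes (median 0.40; 1 fall without NaCl 1 or NaCl 2, 0 without YPD 1 and 4 without YPD 2). In phospholipid and inositol metabolism 4 of 16 rose and 3 fell (median -0.10; 1 rise without NaCl 1 or YPD 1, 2 without NaCl 2, and 1 fall without NaCl 1, YPD 1 or YPD 2, against 6 after quantile normalization). ITR1, an inositol transporter gene, fell from 22.0 and 21.5 to 5.71 and 5.76 FPKM, with 20.8 and 14.4 in KCl and 46.8 and 43.4 in sorbitol. GDE1, which degrades glycerophosphocholine, rose from 5.99 and 6.91 to 33.0 and 28.6.

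Copper, iron and zinc genes had 7 falls and 3 rises among 25 (1 rise without NaCl 1), and the 7 falls held in every fit. CTR1, a copper transporter gene, was at 1014 and 965 FPKM in YPD, 166 and 237 in NaCl, 415 and 388 in KCl and 1253 and 1299.6 in sorbitol. CTR2 fell from 1075 and 1509.6 to 241 and 413 FPKM and the zinc transporter gene ZRT2 from 80.0 and 103 to 32.8 and 28.3. MAC1, a copper-sensing regulator gene, fell by 1.05 ± 0.19 log2 units. The iron uptake genes FTR2 and FET31 fell with log2 changes of -1.07 ± 0.19 and -1.07 ± 0.16 and were also lower than in KCl (log2 differences -1.77 and -1.27). FRE10, a ferric reductase gene, rose from 9.54 and 10.97 to 26.4 and 25.02 FPKM and was higher still in KCl, at 44.2 and 42.8. The other rises, lost without NaCl 1, were of ZRT1, a zinc transporter gene, from 0.984 and 1.31 to 4.02 and 3.14 FPKM (also lost without YPD 1, adjusted p up to 0.079), and SEF1, an iron regulator gene in C. albicans, from 3.83 and 3.61 to 10.2 and 9.75 (up to 0.051). The list median was -0.03. In haem synthesis 4 of 8 fell and 1 rose (median -0.60; 2 falls without NaCl 1, NaCl 2 or YPD 1, and no rise without any single YPD or NaCl library). HEM13 (coproporphyrinogen oxidase) was at 985 and 791 FPKM in YPD, 204 and 225 in NaCl, 476 and 466 in KCl and 1050.0 and 1052 in sorbitol, and HEM14, the next step, fell by 1.21 ± 0.14.

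Chaperone genes fell against YPD libraries that differed from each other. Of 27 genes 18 fell and 1 rose, with a median of -0.75. The falls were 11 without NaCl 1 and 10 without NaCl 2 or without YPD 2. The list's median deviation from the YPD mean was -0.18 in YPD 1 and 0.18 in YPD 2, against -0.72 and -0.71 in the NaCl libraries. HSP90 was at 1127 and 1839 FPKM in YPD, 268 and 237 in NaCl, 549 and 443 in KCl and 764 and 954 in sorbitol. HSP70 had the largest fall of the list, from 63.4 and 171 FPKM in the YPD libraries, which differed widely, to 12.9 and 9.35 in NaCl (log2 change -3.13 ± 0.67; lost without NaCl 2 or YPD 2, adjusted p up to 0.063). SSA2, of the same chaperone family, fell from 1023 and 1630.2 to 516 and 405 FPKM and HSP78, a mitochondrial chaperone gene, from 121 and 155 to 52.3 and 45.2. The rise was CTA8 (0.69), whose relative encodes the heat shock factor; it was lost without NaCl 1 or YPD 1 (adjusted p up to 0.10), and without either KCl library 2 members were called higher. Against KCl 2 of the 27 were lower in NaCl (median difference -0.13), and against sorbitol 13 were lower and 1 higher.

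Proteasome and ubiquitin genes were lower in NaCl by a smaller amount. Of 32 genes 15 fell and none rose, with a median of -0.38, and the falls were 3 without NaCl 1, 5 without YPD 1, and 6 without NaCl 2 or YPD 2, and 9 with no intensity trend. PRE9 fell from 225 and 250.1 to 135 and 148 FPKM, and the regulatory particle ATPase genes RPT1 and RPT4 from 234 and 243 to 151 and 156 and from 312 and 310.3 to 196 and 191. RPT4 had 190.0 and 181 FPKM in KCl and 209.6 and 203 in sorbitol, close to NaCl. Against KCl 4 of the 32 were higher in NaCl and none lower. UBI4, the polyubiquitin gene and one of the most abundant transcripts, was at 15333 and 14163 FPKM in YPD and 9776 and 9673 in NaCl. Its call (-0.60) was lost without NaCl 1, NaCl 2 or YPD 1 (adjusted p up to 0.088), and after quantile normalization the value was 0.07.

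Secretory genes rose modestly. Of 31 genes of endoplasmic reticulum folding and glycosylation 14 rose and 2 fell, with a median of 0.36. The rises were 4 without NaCl 1 or YPD 1 and 7 without YPD 2, and 9 with no intensity trend, and 1 fall was left without any single library. The mannosyltransferase genes PMT4 and MNT2 rose from 119 and 118 to 262 and 203 and from 86.0 and 92.8 to 176 and 149 FPKM, GDA1, a Golgi guanosine diphosphatase gene, by 1.01 ± 0.16 log2 units, and VAN1, of mannan synthesis, fell from 175 and 169 to 105 and 107 FPKM. KAR2, the chaperone gene of the endoplasmic reticulum, was not called (0.14, adjusted p = 0.65). Against KCl no member of this list was called by limma, and against sorbitol 17 were higher and 2 lower.

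Cell wall and surface genes had 21 rises and 3 falls among 50 (median 0.40; 1 fall without NaCl 1 or YPD 2 and 0 without NaCl 2 or YPD 1). The list held 1.24% and 1.18% of the summed FPKM in YPD and 1.89% and 1.66% in NaCl. Beside PHR1, SAP7, SCW4 and YWP1, the GPI-anchored protein genes PGA6 and PGA4 rose by 1.87 ± 0.26 and 1.54 ± 0.16 log2 units, and TOS1 rose from 276 and 313 to 891 and 833 FPKM. PHR2, a paralog of PHR1, was at 575 and 466 FPKM in YPD and 596 and 526 in NaCl, where the libraries overlapped. Of the 50 genes 9 were higher in NaCl than in KCl and none lower, and the median difference was 0.12.

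**Figure D5:**
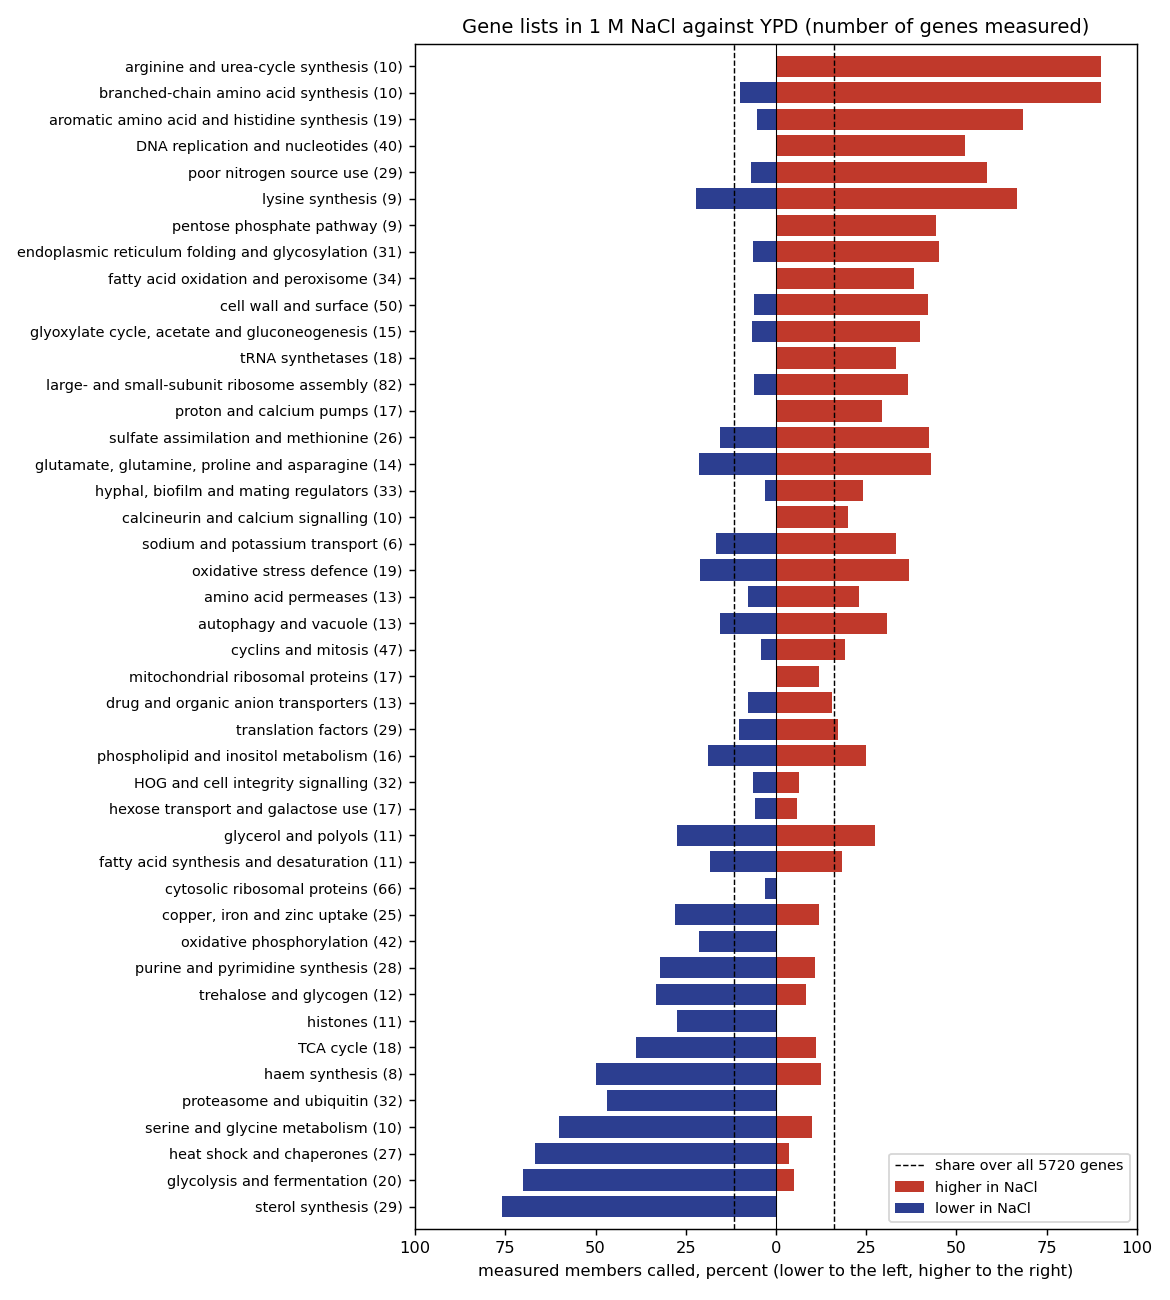
Percent of the measured members of 44 gene lists called higher (right) or lower (left) in NaCl against YPD, ordered by the difference between the 2 percentages, with dashed lines at 16.2% and 11.7%, the shares over all 5720 genes. Arginine and branched-chain synthesis reach 90% higher, and sterol synthesis and glycolysis lie at the lower end.

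Genes of DNA replication rose. Of 40 genes 21 rose and none fell, with a median of 0.63, and the rises were 9 without NaCl 1 and 11 without YPD 1. CDC21 (thymidylate synthase) was at 41.1 and 52.3 FPKM in YPD, 443 and 464 in NaCl, 143 and 125 in KCl and 38.1 and 34.5 in sorbitol, with NaCl above KCl and KCl above the rest. DUT1 (dUTPase) rose from 32.9 and 55.5 to 154 and 153 FPKM and RNR1 (ribonucleotide reductase) from 52.5 and 72.9 to 271 and 176. The replication clamp gene POL30 rose by 1.35 ± 0.16 log2 units. Against KCl 1 gene of the list was higher in NaCl and 1 lower, while against sorbitol 20 were higher. Histone genes did not rise: of 11, 3 fell (none without NaCl 1, 1 without NaCl 2 or YPD 2), and the median of -0.17 was 0.01 after quantile normalization.

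In the cell cycle list 9 of 47 genes rose and 2 fell (median 0.19; 5 rises without NaCl 1 and 4 without YPD 1; the falls became 0 or 1 without any single library and 5 after quantile normalization). The 9 rises and 2 falls were 19.1% and 4.26% of the list, against 16.2% and 11.7% over all genes tested. HGC1, a G1 cyclin gene of hyphae in C. albicans, rose from 3.68 and 3.16 to 16.7 and 18.9 FPKM and stood at 17.7 and 12.5 in KCl. FAR1, a mating-pathway cell cycle inhibitor gene, rose from 8.54 and 8.91 to 26.5 and 23.9, and TUB2 (beta-tubulin) from 203 and 222 to 458 and 396. Of 33 regulators of hyphae, biofilms and mating 8 rose and 1 fell (median 0.27; 4 rises without NaCl 1, and 2 falls without YPD 2 or either KCl library). RFG1, a repressor gene of filamentous growth in C. albicans, rose most, from 11.3 and 11.6 to 94.9 and 129 FPKM, with 41.4 and 64.9 in KCl and 17.7 and 12.3 in sorbitol. SFL2, a transcription factor gene of filamentous growth in C. albicans, rose by 1.48 ± 0.27 log2 units. RIM13, a protease gene of the alkaline pH pathway, fell from 91.1 and 75.6 to 36.7 and 33.7.

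Many ribosome assembly genes were called higher in NaCl, with calls that depended on single libraries. Of 82 genes 30 rose and 5 fell, with a median of 0.47. The rises were 4 without NaCl 1, 6 without YPD 1 and 19 without NaCl 2, and the falls 2 without NaCl 1, NaCl 2 or YPD 2 and 1 without YPD 1. The list's median deviation from the YPD mean was -0.25 in YPD 1 and 0.25 in YPD 2, against 0.61 in NaCl 1 and 0.38 in NaCl 2. NEP1, NOG2 and RRS1 rose in every fit, NOG2 from 26.0 and 39.1 to 100.8 and 82.8 FPKM with 131 and 86.3 in sorbitol. NOG1 fell from 211 and 222 to 106 and 96.2 FPKM and was at 359 and 289 in sorbitol. Against sorbitol 25 of the 82 genes were lower in NaCl and none higher, and against KCl 8 were lower. Of 66 cytosolic ribosomal protein genes 2, RPL9B and RPS42, fell and none rose (median -0.13; 4 fell without either KCl library). Their direction depends on the scaling: after quantile normalization the median was 0.13, with 13 members higher and 2 lower. RPS42 was at 296 and 324 FPKM in YPD, 137 and 151 in NaCl, 622 and 556 in KCl and 663 and 633 in sorbitol, so NaCl stood lowest. RPL25, among the most abundant transcripts in NaCl, was not called (0.08, limma adjusted p = 0.76) but was after quantile normalization (0.56, adjusted p = 0.024). TEF2, an elongation factor gene, was the most abundant transcript in YPD. It was at 43366 and 44161 FPKM in YPD and 35126 and 39569 in NaCl without a call, and at 58531 and 56302 in sorbitol. Mitochondrial ribosomal protein genes had 2 rises among 17 (none without NaCl 1 or YPD 1 and 1 without NaCl 2), with a median of 0.05 that was -0.05 after quantile normalization.

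Ion transport genes moved unevenly. Of 6 sodium and potassium transport genes 2 rose and 1 fell (median 0.52; 1 rise without NaCl 1 or YPD 1, no fall without NaCl 1, NaCl 2 or YPD 1). HAK1, a high-affinity potassium transporter gene, was at 20.4 and 10.8 FPKM in YPD, 62.5 and 58.1 in NaCl, 4.26 and 3.755 in KCl and 8.77 and 7.54 in sorbitol. NaCl was the highest medium and KCl the lowest, a log2 difference of 3.62 ± 0.27 between the salts (limma adjusted p = 1.1e-04). CNH1, a sodium/proton antiporter gene, was at 32.3 and 32.0 FPKM in YPD and 56.1 and 51.5 in NaCl (lost without NaCl 1 or YPD 1, adjusted p up to 0.080), and was higher in KCl, at 66.9 and 79.4, without a call between the salts. NHX1, an endosomal antiporter gene, was at 97.5 and 79.9 in YPD and 62.1 and 59.0 in NaCl (lost without NaCl 1, NaCl 2 or YPD 1, adjusted p up to 0.17). PHO89, a sodium/phosphate cotransporter gene, was at 0.377 and 0.352 FPKM in YPD and 3.18 and 1.17 in NaCl, and missed the threshold (log2 change 1.14 ± 0.37, adjusted p = 0.052). PHO89 met the minimum of FPKM through the NaCl pair only, and its 2 NaCl libraries differed widely. It passed the threshold in the 4 libraries alone (adjusted p = 0.039), with no intensity trend (0.046) and with no filter on low values (0.0498). With a pseudocount of 0.1 FPKM it also passed (0.039), with a log2 change of 2.14. It did not pass after quantile normalization or median-ratio scaling. Single libraries decided the call as well: PHO89 passed without NaCl 2, where the log2 change was 1.615, or without either KCl library. It did not pass without NaCl 1, either YPD library or either sorbitol library. Its KCl libraries were the highest, at 9.39 and 5.13. TRK1 was not called (0.31, adjusted p = 0.26). No gene tested carried an ENA symbol.

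Proton and calcium pump genes had 5 rises and no fall among 17 (median 0.10; none without NaCl 1 or YPD 1, 3 without NaCl 2 and 2 without YPD 2; 2 after quantile normalization and 3 with no intensity trend). PMA1, the plasma membrane proton pump gene, was at 1442 and 1498 FPKM in YPD and 2424 and 2193 in NaCl (lost without NaCl 1 or YPD 1, adjusted p up to 0.068). In calcineurin and calcium signalling 2 of 10 rose, RCN1 (0.89) and YVC1 (0.65), and neither was called without NaCl 1 or without YPD 1. CRZ1, the transcription factor gene of that pathway, was not called (0.29, adjusted p = 0.24).

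Of 32 genes of HOG and cell integrity signalling 2 rose and 2 fell, with a median of -0.04 (1 rise without NaCl 1, YPD 1 or YPD 2 and 0 without NaCl 2, and no fall without NaCl 1 or YPD 1 and 1 without NaCl 2; 1 rise and 4 falls after quantile normalization). HOG1 was at 124 and 132 FPKM in YPD and 151 and 137 in NaCl (log2 change 0.16 ± 0.13, adjusted p = 0.37). In glycerol and polyol metabolism 3 of 11 rose and 3 fell (median 0.20; rises 1 without NaCl 1 and 0 without NaCl 2 or YPD 1; 1 fall without NaCl 2). GPD1 and RHR2, of glycerol synthesis, were at 1202 and 1301 and at 1520.4 and 1493 FPKM in YPD and at 806 and 748 and 1009 and 945 in NaCl. The fall of GPD1 was lost without NaCl 2 (adjusted p = 0.051) and that of RHR2 without any single YPD or NaCl library (up to 0.15). The RHR2 call was also lost with no intensity trend (limma adjusted p = 0.060) and after quantile normalization (0.064). In sorbitol GPD1 was at 1385 and 1728 FPKM and RHR2 at 1987 and 3013, with log2 differences of NaCl minus sorbitol of -0.99 and -1.32. XYL2 (xylitol dehydrogenase) was the fall that held in every fit, from 152 and 161 to 84.4 and 89.0 FPKM. GPD2 was at 379.7 and 494 in YPD and 525 and 633 in NaCl and was not called (adjusted p = 0.60).

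TPS1 and TPS2 of trehalose synthesis fell. In the trehalose and glycogen list 4 of 12 fell and 1 rose, with a median of 0.08. TPS2 (trehalose phosphate phosphatase) was at 391 and 394 FPKM in YPD, 161 and 151 in NaCl, 294 and 251 in KCl and 454 and 514 in sorbitol, and TPS1, the synthase gene, fell from 299 and 324 to 161 and 152. PGM2 (phosphoglucomutase) fell by 0.66 ± 0.13, and the glycogen debranching gene GDB1 rose by 1.12 ± 0.17. Oxidative stress genes split: of 19, 7 rose and 4 fell (median 0.11; 4 rises without NaCl 2 or YPD 1). AHP1, DDR48 and SOD1 rose, DDR48, a stress protein gene of C. albicans, from 44.9 and 49.6 to 388 and 489 FPKM with 417 and 364 in KCl, and SOD1 (superoxide dismutase) from 519.6 and 603 to 1462 and 1584. CCP1 (cytochrome c peroxidase) and GPX3 (glutathione peroxidase) fell from 812 and 689 to 263 and 294 and from 162 and 192 to 52.2 and 71.3 FPKM. Among 13 drug and organic anion transporter genes 2 rose and 1 fell (median -0.15; 1 rise without NaCl 1). Rises and falls were 15.4% and 7.69% of the transporter list, against 16.2% and 11.7% over all genes tested. ROA1, annotated as an ABC transporter, fell from 86.6 and 82.6 to 24.2 and 17.6 FPKM and was at 106 and 65.1 in KCl, and HOL4 rose from 17.9 and 12.7 to 41.0 and 45.2.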

How the data were processed

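RNA-seq values came as 1 deposited table per library, from the authors. Its unit is not stated, and the values were read as FPKM because Cufflinks, with TopHat, is named in the submitters' processing notes. Their versions, the genome build and the strand setting are not given in the labels or those notes. The model was limma 3.58.1 (R 4.3.3, empirical Bayes with an intensity trend, residual degrees of freedom 4) on log2 of the deposited FPKM plus 1. It was run on simulated data with independent noise per library and far fewer changed genes than were called here. That run checks the code and cannot check the calls above. For symbols, 6157 genes were matched to RefSeq locus tags of assembly Hypbu1. The files held no fragment counts, so relative depth came from the steps between low values.

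Named genes were the largest changes with and without a symbol, and up to 3 per list and direction. All were called in every fit that left out 1 library and had 10 FPKM or more in the higher medium. Their NaCl and YPD libraries were also required not to overlap, so absence of overlap between these media is no finding for them. The 5 most abundant genes of each medium and a set of osmotic and ion genes were added whatever their values. Genes named beyond that were chosen after their values were seen. All members and lists were chosen with earlier results of these data known. Alternatives were another pseudocount, filter, scaling, variance model and sample set, a replicate block, and leaving out each library.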

Additional observations from a re-analysis of the deposited data

How the results depend on the processing

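Calls of NaCl against YPD numbered 1592 as reported, and 1529 to 1641 with a pseudocount of 0.1 FPKM, no filter on low values, a minimum of 5 FPKM, median-ratio scaling, no intensity trend, or the 4 libraries of these media alone. Quantile normalization gave 1010 lower genes in place of 667, and turned UBI4 to 0.07 on the log2 scale; the cause was not tested. Leaving out 1 library gave 725 to 1556 calls, 445 to 916 higher and 280 to 650 lower, 238 to 575 calls against KCl and 980 to 1751 against sorbitol. Same-numbered libraries were not treated as pairs: the correlation of their deviations from the medium means across genes ran from -0.15 (YPD and NaCl) to 0.49 (KCl and sorbitol) and exceeded 0.1 in 4 of 6 pairs of media. With the replicate number as a block, 1912 genes were called against YPD, 793 against KCl and 2036 against sorbitol. The block also called PHO89 (adjusted p = 0.014), 6 hexose transport rises in place of 1, 5 metal gene rises in place of 3, and 5 falls each in the cell cycle and phospholipid lists in place of 2 and 3. Another 7 list counts moved by over 1.5 times, each by 1 or 2 genes. Libraries differed in depth by up to 2.16 times, and 1 library decides many calls of small changes.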
